A study of Mus musculus with 9 samples.

Results

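The genes described here encode splicing factors and the kinases that act on them. Members were all protein-coding genes of the deposited table whose symbols begin with Srsf and a digit, Hnrnp, Luc7l or Srpk, together with Clk1 to Clk4, Rbm25 and Rbm39. This gave 43 genes of 54532 listed, of which 22046 are protein coding. By role they are 7 kinases, 11 SR proteins, 3 genes of the LUC7 family, Rbm25 and Rbm39, 7 hnRNP genes of the A/B and D types and 13 hnRNP genes from C to U. The 2 pseudogenes with matching symbols (Hnrnpa1l2-ps and Hnrnpa1l2-ps2) were left out and were listed at 0 in every library.

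Splicing removes introns from a transcript in the nucleus and joins its exons. SR proteins, named for their stretches rich in serine and arginine, bind mainly exons and recruit the splicing machinery to nearby splice sites, whereas hnRNP proteins coat nascent transcripts and often block the use of a site. CLK kinases in the nucleus and SRPK kinases, which work largely in the cytoplasm, phosphorylate the serines of SR proteins and so control where these proteins reside and when they act. LUC7 proteins belong with the U1 particle that recognises the start of an intron, Rbm25 also binds this particle, and Rbm39 resembles a subunit of the factor that marks the end of an intron. Neurons rely on such factors for their many alternative exons.

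RNA of the hippocampus was sequenced from C57BL/6 mice labelled male and 6 to 8 weeks old when purchased, in 3 groups of 3 libraries. The control (Con) group ate a standard diet, and the high-methionine diet (HMD) group ate excess methionine, the precursor of homocysteine, for at least 8 weeks. The Bet+HMD group ate the methionine diet for 8 weeks and then received 2.5% (w/v) betaine, a methyl donor, for 2 weeks. Whether the methionine diet went on during betaine is not clear, 2 of the 3 Bet+HMD strain labels read C57BL/7 and C57BL/8, and nothing states that each library came from a separate animal, so p-values measure the spread between these libraries, which may be technical. The study's methods describe female mice, whereas Xist was at most 0.0449 FPKM and Ddx3y was 12.7 to 21.2 FPKM in these libraries. FPKM scales the fragments counted for a gene by its length in kilobases and by the size of the library.

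Assigned reads per library ranged from 16031464 to 18291952. All 7 hippocampal marker genes were above 0 in every library, with a summed level of 175 to 233 FPKM. Single markers differed, since Spink8 was 15.2 to 24.95 FPKM in Con and HMD and 5.81 to 7.99 in Bet+HMD, and Fibcd1 was 20.4 to 40.5 and 13.0 to 13.5. The third Con library stood apart, with the largest sum of ribosomal protein genes (8393 FPKM, against 5222 to 6286 in the other Con and HMD libraries), and the first HMD library had the largest sum of the 6 thalamus markers (53.95 FPKM, against 9.45 to 22.9 elsewhere). The Bet+HMD libraries were present in the later of the deposited tables alone, so betaine and the batch of these libraries cannot be told apart. In bulk tissue, fewer cells of a type and less RNA per cell cannot be told apart either.

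The Bet+HMD group was set against the HMD group to find which members differed after betaine. Most members were higher in the Bet+HMD group. Hnrnph3, Srsf5, Rbm25, Luc7l3, Clk4 and Srsf11 rose most, by 1.86 to 1.25 on the log2 scale, and all kinases but Srpk2 passed the test upwards. Srpk3 is 1 of these kinases, but it entered the test only through the Bet+HMD libraries, as described below. Hnrnpa0, Srsf3, Hnrnpa3, Hnrnpc and Hnrnpk fell, by 0.24 to 0.48 on the log2 scale. Fold changes here are differences of the mean log2(FPKM + 1), which understates the change of low genes, and a gene was called at an adjusted p under 0.05 in limma (Benjamini-Hochberg over all genes tested).

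Of 43 members tested against HMD, 29 were called higher and 5 lower, while 9 were not called. Among all 13672 genes tested, 22.8% were called higher and 25.5% lower. The median log2 fold change was 0.45 over the members and -0.03 over all genes tested. A log2 fold change of at least 1 together with the adjusted p was reached by 10 members in the higher direction, against 6.14% of all genes tested, and by 0 members in the lower one. The 3 Bet+HMD and 3 HMD libraries did not overlap at 36 members, where 60.1% of all genes did not overlap. Of the 29 members called higher, 22 stayed called under every alternative setting in which they were tested and with each library left out. Clk3, Srpk1 and Srpk3 are among the 22, although a minimum of 5 FPKM left them untested. In direction, 0 of the 29 turned.

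**Figure D1:**
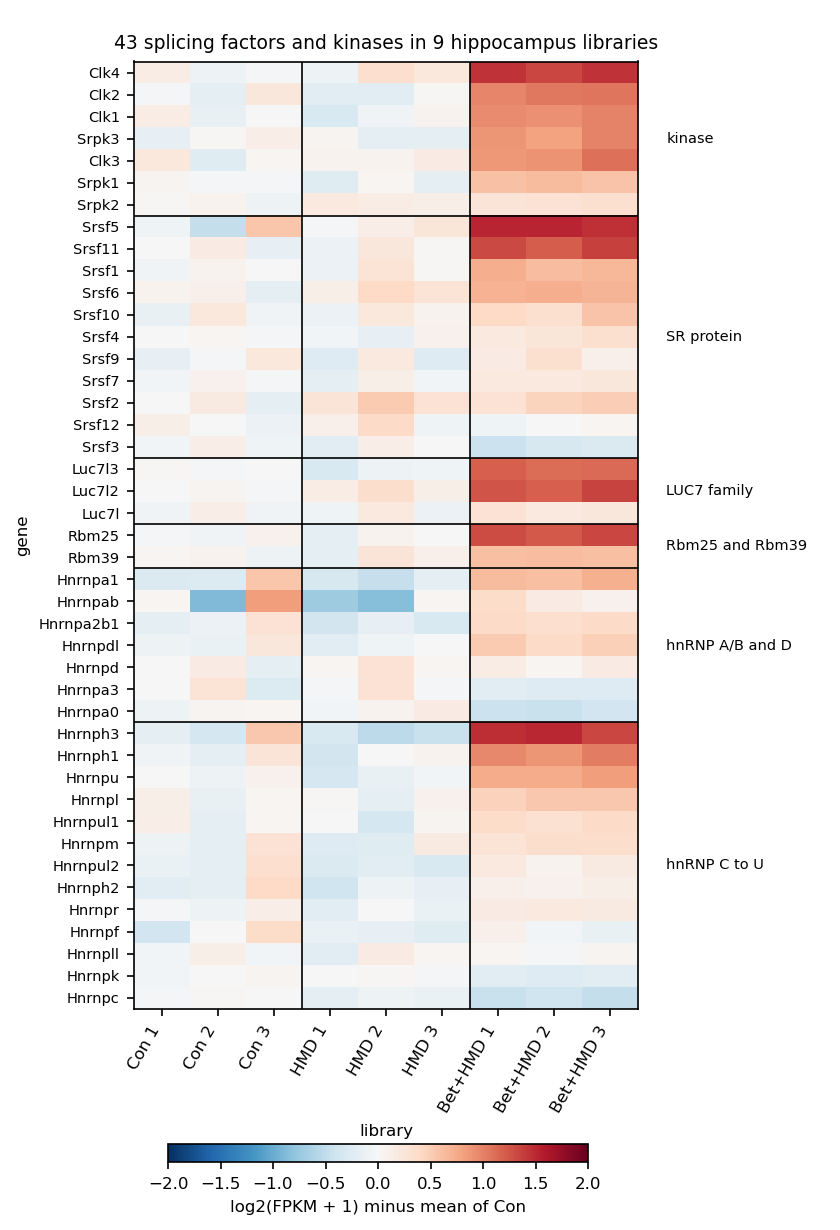
Colour gives log2(FPKM + 1) of each of the 43 members (rows, by role) in each of the 9 libraries (columns) minus the mean of the 3 Con libraries. Most rows are red in all 3 Bet+HMD libraries, rows such as Srsf3, Hnrnpa0 and Hnrnpc are blue there, and the third Con library is red at Hnrnpab, Hnrnpa1, Hnrnph3 and Srsf5.

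Bet+HMD was compared with Con to set the same libraries against the standard diet. Both comparisons share the Bet+HMD libraries, so their results are not independent and are given side by side. Against Con, 24 of 43 members were called higher (19.4% of all 13643 genes tested) and 4 lower (20.4%), and 15 were not called. The adjusted p with a log2 fold change of at least 1 was met by 8 members in the higher direction (5.77% of all genes). The libraries did not overlap at 33 members, against 55.1% of all genes. The median of the members was 0.41 and that of all genes was -0.04 (log2). In both comparisons 22 members were called higher and 4 lower. Without the third Con library, 30 members were called higher and 5 lower, and 6269 of all genes were called in either direction, where the fit of all libraries called 2645 higher and 2777 lower.

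Promoters are shown for 3 members that rose most within their role group and for the member that fell most, since these moved apart in the same libraries. Sequences are from RefSeq on GRCm38.p6, 250 bases before to 50 bases after the annotated start nearest the deposited end of the gene, read 5′ to 3′ on the gene's strand. The starts lay 5 bases (Srsf5), 368 bases (Hnrnph3), 25 bases (Luc7l3) and 0 bases (Hnrnpa0) from the deposited ends. Clk4 and Rbm25 also rose most in their role groups. They are not shown, since their annotated starts lay further from the deposited ends than these. No riser was taken from the hnRNP A/B and D group, where Hnrnpa1 rose most. Capitals mark matches to CCCGCCC or CCGGAAGT on either strand. Srsf5 is at chr12:80945249-80945548 (+), Hnrnph3 at chr10:63023800-63024099 (-), Luc7l3 at chr11:94321914-94322213 (-) and Hnrnpa0 at chr13:58128507-58128806 (-).
Srsf5: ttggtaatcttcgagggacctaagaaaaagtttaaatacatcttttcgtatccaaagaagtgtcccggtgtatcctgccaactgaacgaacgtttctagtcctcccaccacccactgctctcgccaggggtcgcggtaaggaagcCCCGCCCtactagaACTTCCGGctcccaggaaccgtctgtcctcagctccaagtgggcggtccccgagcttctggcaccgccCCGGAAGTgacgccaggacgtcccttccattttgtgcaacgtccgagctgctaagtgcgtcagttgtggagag
Hnrnph3: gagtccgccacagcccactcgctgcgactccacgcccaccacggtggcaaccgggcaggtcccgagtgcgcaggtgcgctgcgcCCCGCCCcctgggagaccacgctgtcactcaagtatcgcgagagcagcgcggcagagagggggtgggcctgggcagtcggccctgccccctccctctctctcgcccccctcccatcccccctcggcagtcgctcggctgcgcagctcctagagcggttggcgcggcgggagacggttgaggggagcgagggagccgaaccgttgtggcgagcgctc
Luc7l3: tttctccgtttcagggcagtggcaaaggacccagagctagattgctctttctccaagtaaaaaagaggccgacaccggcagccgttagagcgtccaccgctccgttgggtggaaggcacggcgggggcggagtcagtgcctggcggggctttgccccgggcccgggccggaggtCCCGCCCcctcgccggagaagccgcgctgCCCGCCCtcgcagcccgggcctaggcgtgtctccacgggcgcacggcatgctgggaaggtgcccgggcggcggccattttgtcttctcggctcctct
Hnrnpa0: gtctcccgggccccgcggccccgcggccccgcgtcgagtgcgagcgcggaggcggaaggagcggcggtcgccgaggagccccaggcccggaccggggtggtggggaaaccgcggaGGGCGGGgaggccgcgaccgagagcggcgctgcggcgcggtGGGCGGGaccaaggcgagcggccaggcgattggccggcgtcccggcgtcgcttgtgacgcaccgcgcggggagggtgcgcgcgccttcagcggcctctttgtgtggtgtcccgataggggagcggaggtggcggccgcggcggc

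All 4 windows held CCCGCCC, the GC box that SP proteins bind, whichever way the gene moved. In the 39 members with a RefSeq promoter on the deposited chromosome and strand this motif was present in 56.4%, against 35.4% of the promoters of 16477 protein-coding genes. CCGGAAGT, a core that ETS factors bind, was in 10.3% of the members' promoters (Hnrnpd, Hnrnpf, Srsf4 and Srsf5) and in 5.54% of all. TCTCGCGAG was in 3 members (Rbm39, Srsf10 and Srsf4), or 7.69% against 1.05%. TATAAA was in 15.4% of the members and 12.8% of all, and GCGCATGCG, part of the motif of NRF1, was in 5.13% and 2.51%. TGACGTCA, the palindrome that CREB binds, was in Clk4 alone (2.56% against 2.43%), and AAGATGGCG, a YY1 motif, was in 0 members and 2.03% of all. Both strands were searched, and matches of different motifs overlapped in 0 members. The annotated start lay within 100 bases of the deposited end in 26 of the 39 members. Windows further away, those of Clk4 and Rbm25 among them, were kept in these counts. Median GC content was 65.0% in the members and 57.0% in all promoters, with 28 and 14 CpG dinucleotides per 300 bases. A match is a description of the letters and not of a bound site.

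Among the kinases, all 4 CLK genes rose. Clk4 (ENSMUSG00000020385, chromosome 11, 51261730 to 51281766, + strand) was at 6.99, 5.66 and 5.97 FPKM in Con, 5.73, 8.03 and 7.29 in HMD and 18.6, 17.1 and 18.6 in Bet+HMD. The log2 fold change was 1.26 against HMD (SE 0.116, limma adjusted p 0.000241) and 1.41 against Con (SE 0.0959, limma adjusted p 0.000244). Every Bet+HMD library was above every library of the other groups, which overlapped each other. Clk4 overlaps annotated genes on both strands, and it was not stated whether counting used the strand. Other members overlap genes on the opposite strand, Rbm25, Luc7l2, Hnrnpu, Srsf1 and Hnrnpab among them.

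Clk1 (chromosome 1, 58410189 to 58424066, - strand), the best studied CLK kinase, was at 10.5, 8.32 and 9.27 FPKM in Con, 7.34, 8.84 and 9.84 in HMD and 18.8, 18.4 and 19.6 in Bet+HMD. Clk2 (chromosome 3, 89164795 to 89176921, + strand) had 3.00, 2.57 and 3.78 FPKM in Con, 2.55, 2.54 and 3.14 in HMD and 7.04, 7.51 and 7.63 in Bet+HMD. Clk3 (chromosome 9, 57750624 to 57765860, - strand), which overlaps Edc3 on the opposite strand, had 3.48, 2.26 and 2.98 FPKM in Con, 3.06, 3.05 and 3.36 in HMD and 6.06, 6.23 and 7.31 in Bet+HMD. For each of these kinases the Bet+HMD libraries lay above all others, while Con and HMD overlapped. The log2 fold changes against HMD were 1.17 for Clk2, 1.05 for Clk1 and 0.86 for Clk3, with limma adjusted p of 0.000132, 0.000317 and 0.000421. Against Con they were 1.04, 0.95 and 0.96, with limma adjusted p of 0.00108, 0.000746 and 0.00234.

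The SRPK kinases differed among themselves. Srpk1 (chromosome 17, 28587648 to 28622709, - strand), the widely expressed member, was at 3.58, 3.26 and 3.34 FPKM in Con, 2.72, 3.496 and 2.87 in HMD and 5.61, 5.81 and 5.504 in Bet+HMD. Its log2 fold change was 0.73 against HMD (limma adjusted p 0.000908) and 0.60 against Con (limma adjusted p 0.00161). Srpk2 (chromosome 5, 23503264 to 23684617, - strand), the SRPK of highest level here and one known in brain, was at 15.01, 15.6 and 13.6 FPKM in Con, 17.0, 16.3 and 16.1 in HMD and 17.8, 18.1 and 18.6 in Bet+HMD. The levels were lowest in Con, higher in HMD and highest in Bet+HMD, with no overlap between any of the groups. Against HMD the log2 fold change of Srpk2 was 0.13 and was not called (limma adjusted p 0.124), and against Con it was 0.29 and was called (limma adjusted p 0.0297). Srpk2 overlaps Kmt2e and other genes.

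Srpk3 (chromosome X, 73774405 to 73778925, + strand), known mainly from muscle, was the lowest member, with 19 to 109 reads per library. It was at 0.457, 0.665 and 0.798 FPKM in Con, 0.703, 0.445 and 0.447 in HMD and 2.03, 1.85 and 2.25 in Bet+HMD. All Bet+HMD values were above all others. The log2 fold change was 0.99 against HMD (limma adjusted p 0.000943) and 0.89 against Con (limma adjusted p 0.00242), and with a pseudocount of 0.1 or other settings it ranged from 0.66 to 2.03 against HMD. Its mean was 0.53 FPKM in HMD, 0.64 in Con and 2.04 in Bet+HMD. Srpk3 therefore passed the minimum mean of 1 FPKM only through the group where it was high. It is still counted among the members called higher in both comparisons, and these calls carry less weight. In HMD against Con it was below the minimum and was not tested.

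**Figure D2:**
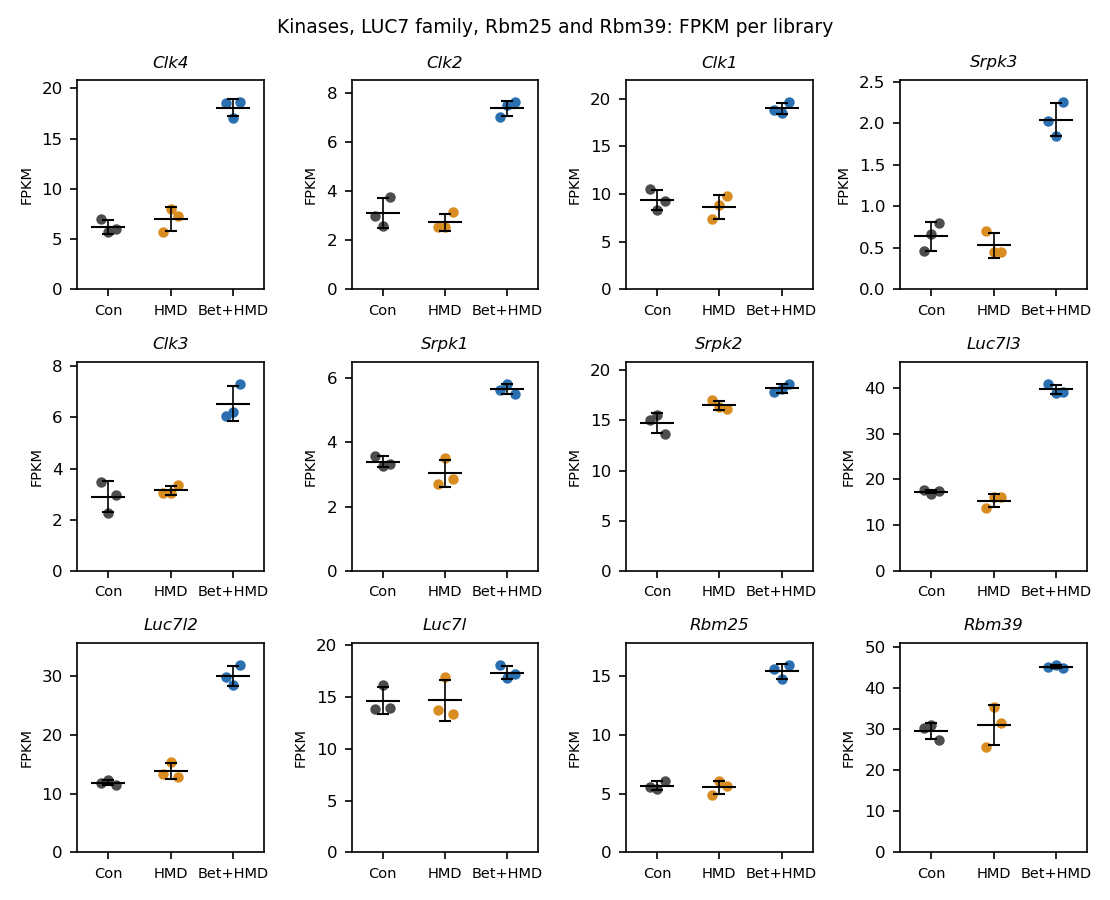
Each panel shows FPKM (vertical axis, from 0) of one gene in the 3 libraries of each group (points), with the mean and SD (bars). The Bet+HMD points lie above all others in every panel except that of Luc7l, where one HMD library falls within their range.

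Of the 11 SR proteins, 6 were called higher and 1 lower against HMD, with a median of 0.30 (log2), and 7 were called higher and 1 lower against Con. The shares of all genes were 22.8% higher and 25.5% lower against HMD, and 19.4% and 20.4% against Con. The counts of lower SR proteins were under these shares. Srsf5 (ENSMUSG00000021134, chromosome 12, 80945504 to 80950507, + strand), whose promoter is shown above, was at 27.9, 20.9 and 44.0 FPKM in Con, 28.7, 32.6 and 35.2 in HMD and 86.7, 86.4 and 83.0 in Bet+HMD. It became the member of highest level in Bet+HMD (85.4 ± 2.06 FPKM, SD, n = 3), whereas its mean was 30.9 ± 11.8 FPKM in Con, below those of Hnrnpa0 and Hnrnpk. Against HMD it rose by 1.39 on the log2 scale (SE 0.0862, limma adjusted p 6.19e-05) and against Con by 1.499 (SE 0.241, limma adjusted p 0.00363). The third Con library, at 44.0 FPKM, was the highest outside Bet+HMD.

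Srsf11 (chromosome 3, 158010473 to 158036639, - strand), an SR protein of the spliceosome that overlaps a predicted gene on its strand, was at 12.7, 14.3 and 11.2 FPKM in Con, 11.6, 15.005 and 12.9 in HMD and 33.2, 30.6 and 34.2 in Bet+HMD, a log2 fold change of 1.25 (limma adjusted p 0.000151) and 1.30 (limma adjusted p 0.000381) against HMD and Con. The founding SR protein Srsf1 had means of 24.3 ± 1.25 FPKM (SD, n = 3) in Con, 25.5 ± 3.56 in HMD and 39.02 ± 1.57 in Bet+HMD. Srsf6 had means of 19.2 ± 2.07, 23.2 ± 2.26 and 31.7 ± 0.642 FPKM in the same order. Both were called higher in both comparisons. Srsf10, which turns into a repressor of splicing when it loses phosphate, and Srsf4 were also called higher in both, by 0.38 and 0.30 against HMD, but each lost the call against HMD in some fits with a library left out.

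Srsf3 (chromosome 17, 29032628 to 29043373, + strand), the smallest SR protein and a factor of RNA export, moved the other way. It was at 19.7, 22.5 and 19.2 FPKM in Con, 17.4, 22.5 and 20.49 in HMD and 14.9, 16.2 and 16.4 in Bet+HMD, so that every Bet+HMD library was below all others. The log2 fold change was -0.32 against HMD (limma adjusted p 0.0351) and -0.35 against Con (limma adjusted p 0.0240). Neither call was kept after rescaling to TPM or quantile normalization. Srsf7 (0.25), Srsf9 (0.30), Srsf2 (0.05) and Srsf12 (-0.14), the near relative of Srsf10, were not called against HMD (log2 fold changes). Of these, Srsf2 was called against Con, at 0.41 (limma adjusted p 0.0316).

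In the LUC7 family, Luc7l2 and Luc7l3 rose, and Luc7l was not called. Luc7l3 (ENSMUSG00000020863, chromosome 11, 94287890 to 94321988, - strand) was at 17.6, 16.9 and 17.4 FPKM in Con, 13.8, 16.1 and 16.2 in HMD and 40.8, 38.9 and 39.1 in Bet+HMD. Luc7l2 (chromosome 6, 38551334 to 38609470, + strand) was at 11.8, 12.4 and 11.5 FPKM in Con, 13.3, 15.4 and 12.9 in HMD and 29.9, 28.5 and 31.9 in Bet+HMD. Luc7l (chromosome 17, 26252910 to 26285504, + strand), which overlaps a predicted gene, was at 13.8, 16.1 and 13.9 FPKM in Con, 13.7, 16.9 and 13.4 in HMD and 18.02, 16.8 and 17.2 in Bet+HMD. The Bet+HMD libraries were apart from the rest for Luc7l2 and Luc7l3, and the second HMD library lay within the Bet+HMD range for Luc7l. Against HMD the log2 fold changes were 1.32 for Luc7l3, 1.07 for Luc7l2 and 0.23 for Luc7l, with limma adjusted p of 6.18e-05, 0.000166 and 0.0884. Against Con they were 1.15, 1.27 and 0.23, with limma adjusted p of 0.000210, 0.000210 and 0.0758.

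Rbm25 (ENSMUSG00000010608, chromosome 12, 83631236 to 83683123, + strand) was at 5.59, 5.39 and 6.09 FPKM in Con, 4.92, 6.04 and 5.64 in HMD and 15.6, 14.7 and 15.9 in Bet+HMD. The difference was 1.33 (log2, SE 0.0862, limma adjusted p 7.19e-05) against HMD and 1.29 (SE 0.0803, limma adjusted p 0.000204) against Con. Rbm39 (chromosome 2, 156147239 to 156180238, - strand) was at 30.2, 31.1 and 27.3 FPKM in Con, 25.8, 35.6 and 31.7 in HMD and 45.3, 45.6 and 45.0 in Bet+HMD. Its log2 fold changes were smaller, 0.54 and 0.60, with limma adjusted p of 0.00688 and 0.00199. For both genes no Bet+HMD library fell within the range of the other groups.

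Among the 7 hnRNP genes of the A/B and D types, 4 were called higher and 2 lower against HMD, and 1 was called in each direction against Con. Of all genes, 22.8% were called higher and 25.5% lower against HMD, and 19.4% and 20.4% against Con. The 2 lower calls against HMD and both counts against Con were thus near or under the shares of all genes. Hnrnpa1 (chromosome 15, 103240432 to 103246692, + strand), which silences exons, was at 37.6, 38.2 and 68.3 FPKM in Con, 36.9, 33.2 and 40.03 in HMD and 72.4, 70.2 and 76.3 in Bet+HMD. Against HMD it rose by 0.98 (log2, limma adjusted p 0.000208). Against Con its log2 fold change was 0.65 and was not called (limma adjusted p 0.0573). The third Con library was just under the Bet+HMD range, and without it the log2 fold change was 0.93 and was called. With all libraries it was also called under 6 of 11 alternatives (0.65 to 1.008). Hnrnpa2b1, a carrier of RNA to neuronal processes, was likewise called against HMD (0.65) but against Con only when the third Con library was left out among the fits with 1 library removed. Hnrnpdl was called in both comparisons (0.57 and 0.46). Hnrnpab varied most within groups, with 22.3, 11.4 and 39.6 FPKM in Con and 12.8, 11.6 and 22.3 in HMD, and its call against HMD (0.71, limma adjusted p 0.0343) was lost without the first or the second HMD library or any Bet+HMD library. Hnrnpd, which binds AU-rich elements, was not called in either comparison.

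Hnrnpa0 (ENSMUSG00000007836, chromosome 13, 58125879 to 58128556, - strand), a single-exon gene whose protein binds AU-rich RNA, fell most. It was at 55.4, 62.0 and 61.6 FPKM in Con, 57.1, 62.7 and 67.0 in HMD and 43.9, 43.5 and 45.3 in Bet+HMD, and all Bet+HMD libraries were below all others. The log2 fold change was -0.48 against HMD (SE 0.0776, limma adjusted p 0.00229) and -0.42 against Con (limma adjusted p 0.00763). With quantile normalization it was -0.17 and -0.091 and was not called, and with TPM it was -0.29, still called, and -0.21, not called. Hnrnpa3 was at 28.3, 35.6 and 28.3 FPKM in HMD, 25.2, 24.2 and 24.3 in Bet+HMD and 29.2, 35.3 and 23.9 in Con, where the third library was below the Bet+HMD libraries. It was called lower against HMD (-0.30, limma adjusted p 0.0402) and not against Con (-0.24, limma adjusted p 0.215). The call against HMD was kept under 3 of 11 alternatives and ranged from -0.31 to -0.10.

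Of the 13 hnRNP genes from C to U, 9 were called higher and 2 lower against HMD, and 5 and 2 against Con. All genes had shares of 22.8% higher and 25.5% lower against HMD, and 19.4% and 20.4% against Con, and both lower counts were under these. Hnrnph3 (ENSMUSG00000020069, chromosome 10, 63014664 to 63024217, - strand), a relative of the factors that bind G-rich RNA, overlaps Rufy2 on the opposite strand. It was at 4.90, 4.25 and 8.81 FPKM in Con, 4.46, 3.69 and 3.95 in HMD and 17.8, 18.1 and 15.9 in Bet+HMD. Its rise against HMD was the largest of all members, 1.86 (log2, SE 0.0892, limma adjusted p 3.01e-05), which ranked 209 of 13672 genes by log2 fold change. Against Con it was 1.44 (SE 0.226, limma adjusted p 0.00334) and the third Con library, at 8.81 FPKM, was the highest outside Bet+HMD.

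Hnrnph1, its close relative, had means of 26.6 ± 4.48 FPKM (SD, n = 3) in Con, 24.7 ± 4.07 in HMD and 51.9 ± 2.53 in Bet+HMD. Hnrnpu, which links RNA to the nuclear scaffold, had means of 33.0 ± 2.22, 29.0 ± 2.94 and 57.2 ± 2.34 FPKM in the same order. Both rose in both comparisons, by 1.05 and 0.96 against HMD (log2). Hnrnpl, which binds CA repeats, rose by 0.54 and 0.51 against HMD and Con. Hnrnpul1 was also called higher in both, whereas Hnrnpul2, Hnrnpm, Hnrnph2 and Hnrnpr were called against HMD alone (0.42, 0.43, 0.33 and 0.29), and the difference between the comparisons was not tested. Without the third Con library, 9 genes of this group were called higher against Con, Hnrnpul2, Hnrnpm, Hnrnph2 and Hnrnpr among them. Hnrnpf and Hnrnpll were not called in either comparison.

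Hnrnpc (chromosome 14, 52073377 to 52104028, - strand), which binds uridine tracts and keeps cryptic exons out, was at 41.5, 43.4 and 43.03 FPKM in Con, 37.2, 39.8 and 38.9 in HMD and 31.0, 32.2 and 30.4 in Bet+HMD. Hnrnpk (chromosome 13, 58391142 to 58403343, - strand), which binds C-rich RNA and overlaps Rmi1 and a microRNA gene, was at 53.1, 55.5 and 57.6 FPKM in Con, 55.5, 56.1 and 54.4 in HMD and 47.4, 46.1 and 47.0 in Bet+HMD. For both genes all Bet+HMD libraries were below all others. The log2 fold changes were -0.30 and -0.24 against HMD, with limma adjusted p of 0.00804 and 0.0153. Against Con they were -0.44 and -0.24, with limma adjusted p of 0.00444 and 0.0452. Under 11 alternatives the call of Hnrnpk was kept in 7 against HMD and in 4 against Con, and after quantile normalization it changed sign, to 0.069 against HMD and 0.10 against Con. Hnrnpc lost both calls with TPM and quantile normalization, where it was -0.11 and -0.054 against HMD.

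**Figure D3:**
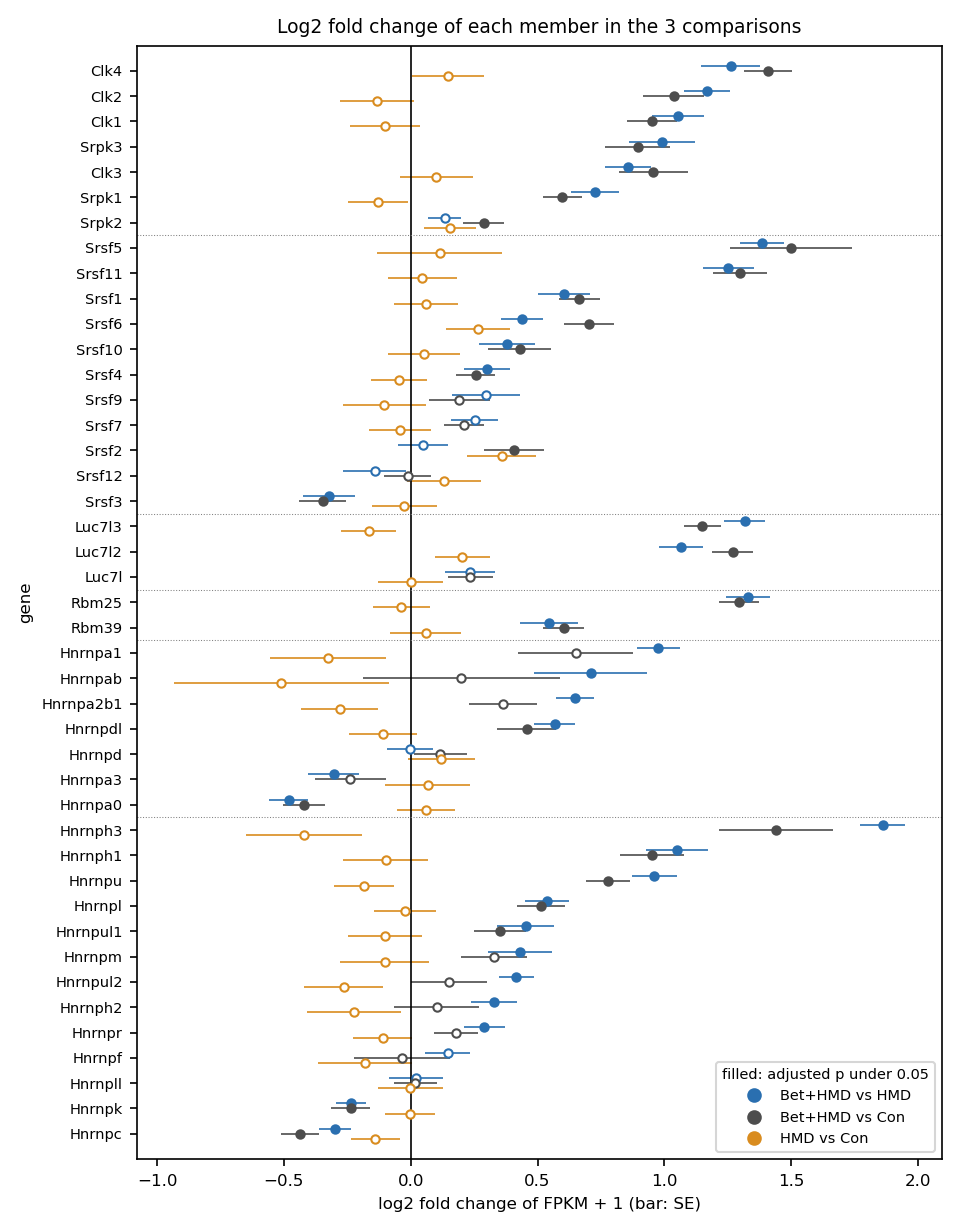
The horizontal axis is the log2 fold change of FPKM + 1 and bars are SE from limma. Blue is Bet+HMD against HMD, grey is Bet+HMD against Con and orange is HMD against Con, and filled points have an adjusted p under 0.05. The kinases, LUC7 genes and RBM genes lie right of 0 in both Bet+HMD comparisons, from 0.13 to 1.41, and 0 of the orange points are filled.

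Some calls were near the threshold and were lost when 1 library was left out, although no called member changed sign. With 1 library left out, Hnrnpk against HMD stayed at -0.25 to -0.22 and Srsf4 against Con at 0.22 to 0.29 (log2). Against HMD, Srsf4, Hnrnpr, Hnrnph2, Hnrnpa3 and Hnrnpk lost the call without any 1 of the Bet+HMD libraries, and Srsf4 and Hnrnpr also without the first HMD library. Srsf3 kept it only without the first HMD library and Hnrnpm only without the third. Srsf10 lost the call without the first HMD library and without either the first or the third Bet+HMD library, and Hnrnpul1 without the third Bet+HMD library. Without the second HMD library, Luc7l, Srsf7 and Srsf9 gained a call. Against Con, Srsf2, Srsf4, Srpk2, Hnrnpdl and Hnrnpk lost the call without the first Con library or any Bet+HMD library, Srsf10 also without the third Con library, and Srsf3 and Hnrnpul1 without any Bet+HMD library.

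Rescaling to TPM moved the median of all genes to 0.16 (log2) against HMD and 0.17 against Con, so the share of higher calls among all calls was 69.5% against HMD, in place of 47.2%, and 73.5% against Con, in place of 48.8%. With voom on recovered reads these shares were 57.9% and 59.7%. The members' median exceeded that of all genes by 0.48 with FPKM and by 0.52 with TPM against HMD, and by 0.45 and 0.47 against Con. The falls depended on the scale, since 1 member was called lower against HMD under TPM and 0 under quantile normalization, and 0 were called lower against Con under either. Ratios of 2 members within a library do not depend on a factor that scales the whole library, though quantile normalization can change them. Hnrnph3 over Hnrnpa0 was 0.0588 to 0.143 in the Con and HMD libraries and 0.351 to 0.416 in Bet+HMD. Clk4 over Hnrnpk was 0.102 to 0.143 and 0.371 to 0.395, and Srsf5 over Srsf3 was 0.929 to 2.29 and 5.05 to 5.80. All Bet+HMD ratios were above all others, which the choice of the pairs fixed, since each sets a member that rose over a member that fell.

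HMD was compared with Con to ask whether the diet alone was accompanied by a difference in these genes. Of 42 members tested, 0 were called by limma in either direction, and 0 of all 13004 genes tested were called (0%). With limma voom the count was again 0 members and 0 of all genes, of which 553 had an unadjusted p under 0.05. At an unadjusted p under 0.05 there was 1 member, Srsf2, against 4.52% of all genes. The libraries did not overlap at 7 members, 4 higher and 3 lower in HMD, against 9.61% of all genes. The members' median was -0.04 (log2) and that of all genes was -0.01.

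Srsf2 (chromosome 11, 116849901 to 116853094, - strand), which binds exonic enhancers and overlaps Mfsd11 and Mettl23 on the other strand, was at 26.0, 29.6 and 22.8 FPKM in Con and 31.4, 37.8 and 31.9 in HMD. This was a difference of 0.36 on the log2 scale (SE 0.136, limma adjusted p 0.979). Srsf6 was at 20.2, 20.52 and 16.8 FPKM in Con and 20.9, 25.4 and 23.3 in HMD, which differed by 0.26 (log2, SE 0.127). Luc7l2 had a log2 fold change of 0.20 (SE 0.109). All 3 were higher in every HMD library than in any Con library, and their limma adjusted p was 0.979.

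In the lower direction the smallest p-values belonged to Hnrnpa2b1, Hnrnph3 and Hnrnpul2. Hnrnpa2b1 was at 44.3, 46.5 and 61.9 FPKM in Con and 38.7, 44.8 and 40.5 in HMD (-0.28 on the log2 scale, limma adjusted p 0.979). Hnrnph3 differed by -0.42 (SE 0.228). Hnrnpul2, a relative of Hnrnpu, was at 38.5, 36.8 and 53.7 FPKM in Con and 34.6, 36.6 and 34.1 in HMD (-0.26, SE 0.156). For each the third Con library was the highest. It was also the highest of the 6 Con and HMD libraries at 18 of 43 members, and the lowest of the Con libraries at 12. These counts were not set against all genes. Fitted values were below 0 at all 13 hnRNP genes from C to U and at 9 of 13 without the third Con library, against 6750 of all 13004 genes. Hnrnpk and Hnrnpll, at -0.0017 and -0.0015, turned positive with TPM, quantile normalization and median centring.

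Within groups the median coefficient of variation over the members was 11.6% in Con, 10.7% in HMD and 4.10% in Bet+HMD, and Hnrnpab was the most variable member in each group.

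Many members have annotated transcripts that do not code for the full protein. Transcripts of SR protein and CLK genes are known to include forms with retained introns that stay in the nucleus, and forms with an early stop that are degraded. In GENCODE M21, 34 of 43 members have a retained-intron transcript, against 41.5% of all protein-coding genes, and 30 have a transcript marked for nonsense-mediated decay, against 20.8%. The deposited gene length equalled the union of all annotated exons at 39 members and at 98.01% of the 54409 genes with an identifier in this release. Reads from retained introns within that union would therefore count for the gene. The median share of this union outside protein-coding transcripts was 32.3% in the members and 4.75% in all protein-coding genes. It was 77.9% in Clk1, 72.0% in Rbm25, 66.9% in Srsf3, 62.2% in Clk4 and 0% in Hnrnpa0. At Hnrnpm, Srsf7, Hnrnpul2 and Luc7l the union was longer than the deposited length, so their shares are not of the counted length.

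Against HMD, the 5 members with 0% outside coding transcripts had a median log2 fold change of 0.14 and the 8 members above 0% and up to 20% had 0.33. The median was 0.42 in 13 members above 20% and up to 40%, 0.79 in 10 members up to 60% and 1.05 in 7 members above 60%. Called higher were 2, 5, 8, 9 and 5 members in this order. Other protein-coding genes had medians of -0.17, -0.05, 0.00, 0.01 and -0.02, and 11.2%, 19.3%, 24.9%, 24.9% and 22.9% were called higher. Across the 43 members Pearson's r was 0.411 and Spearman's rho was 0.436 (0.476 and 0.498 against Con), where Spearman's rho over the other protein-coding genes was 0.14 (0.153 against Con). With the number of retained-intron transcripts in its place, Pearson's r was 0.21 and Spearman's rho was 0.325 over the members (0.265 and 0.378 against Con). Over the other protein-coding genes Spearman's rho was then 0.206 (0.226 against Con). These are descriptions across genes, which share libraries and are not replicates. Srsf3 and Hnrnpll had high shares and no rise, and Luc7l3 and Hnrnph3 rose at shares of 7.57% and 22.3%. The gene values do not separate spliced from unspliced reads, so the part of retained introns in these differences was not tested.

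**Figure D4:**
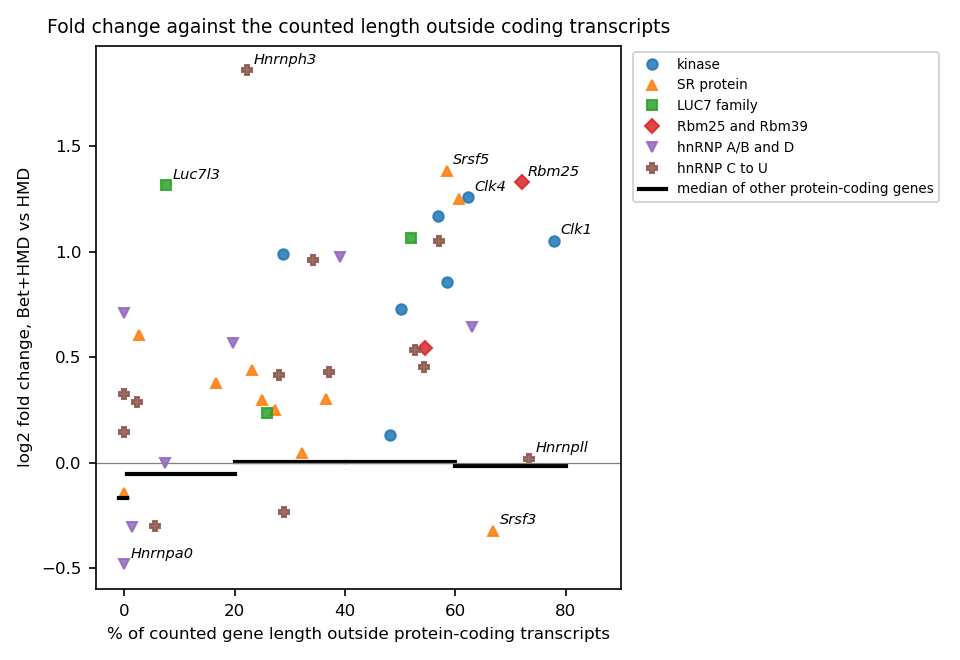
Each point is a member, with symbols by role. The horizontal axis, labelled as counted gene length, is the percentage of the union of annotated exons outside protein-coding transcripts. The vertical axis is the log2 fold change in Bet+HMD against HMD. Black bars are medians of the other protein-coding genes in each range. Members above 40% mostly lie above 0.4, with Srsf3, Hnrnpll and Srpk2 below.

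All members together took 0.482% to 0.571% of assigned reads in Con, 0.462% to 0.514% in HMD and 0.763% to 0.790% in Bet+HMD. Other measures moved with them. The 5 RNAs kept in the nucleus (Malat1, Neat1, Meg3, Rian and Miat) summed to 58.1 to 92.2 FPKM in Con and HMD and to 559 to 591 in Bet+HMD, and all 5 were above 0 in every library. The 100 ribosomal protein genes summed to 5222 to 8393 FPKM in Con and HMD and to 2468 to 2897 in Bet+HMD, with 4 to 6 of them at 0 in any library. Neuron markers summed to 571 to 719 FPKM in Con and HMD and to 611 to 632 in Bet+HMD, and astrocyte markers to 354 to 514 and 432 to 460, so these sums overlapped, although Gfap, an astrocyte marker, was 66.0 to 84.4 and 50.5 to 52.5 FPKM. The sums of 4 microglia markers were 48.5 to 59.1 in Con and HMD and 45.4 to 46.4 in Bet+HMD. Those of 3 endothelium markers were 22.9 to 32.7 and 20.9 to 21.7, so both sums were lowest in the Bet+HMD libraries. Single markers differed here too. Csf1r, Tmem119 and Cldn5 were below all other libraries in Bet+HMD, whereas Cx3cr1, P2ry12 and Pecam1 overlapped. Flt1, an endothelium marker, went the other way, at 5.75 to 7.33 FPKM in Con and HMD and 7.38 to 7.85 in Bet+HMD. The part of these shifts in the members' differences was not tested.

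**Figure D5:**
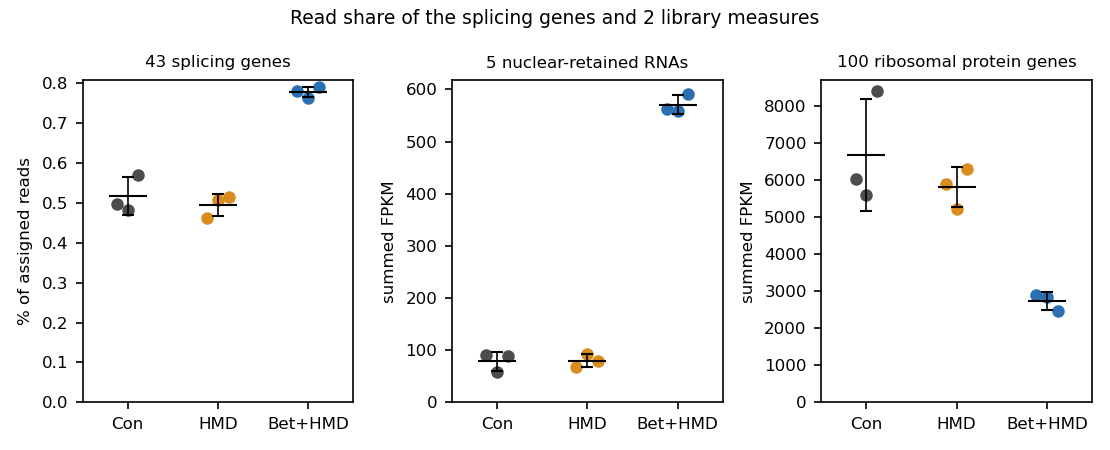
Points are libraries and bars are the mean and SD of 3. The left panel is the percentage of assigned reads in the 43 members, the middle panel is the summed FPKM of 5 nuclear-retained RNAs and the right panel that of 100 ribosomal protein genes. The 3 Bet+HMD libraries are highest in the first and second panels and lowest in the third, and the third Con library is highest in the third.

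Other splicing genes were followed in 5 lists, whose counts stand beside 22.8% higher and 25.5% lower among all genes against HMD and 19.4% and 20.4% against Con. Of 24 SR-related genes outside the SRSF family, 19 were called higher and 0 lower against HMD, with a median of 0.98 (log2). Pnisr, an SR-rich protein, was at 8.08, 10.4 and 9.38 FPKM in HMD and 44.4, 42.6 and 45.5 in Bet+HMD (2.14, limma adjusted p 2.16e-05). Of 40 RNA-binding splicing regulators tested, 20 were called higher and 4 lower (median 0.24). Rbm4, called higher, was at 0.955, 0.978 and 0.731 FPKM in HMD and entered the test only through Bet+HMD (1.43, 1.61 and 1.70). Taf15, an RNA-binding protein, rose most, from 3.59, 2.62 and 4.95 to 19.5, 19.0 and 20.3 FPKM (2.16, limma adjusted p 0.000131), and Matr3, a protein of the nuclear matrix, fell most, from 51.8, 60.4 and 55.9 to 39.1, 37.9 and 43.2 FPKM (-0.47, limma adjusted p 0.00373).

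The snRNP core list had calls both ways, with 4 of 20 called higher and 8 lower (median -0.13). Snrnp70, the U1 protein, was at 7.29, 9.27 and 9.35 FPKM in HMD and 52.4, 50.5 and 51.4 in Bet+HMD (2.45, limma adjusted p 1.57e-05). Snrpd2, one of the Sm proteins that ring the snRNA, was at 11.6, 11.2 and 15.1 and 2.70, 3.97 and 2.92 FPKM (-1.70, limma adjusted p 0.000208). Both proteins belong to the U1 particle, and their genes moved in opposite directions. Of 15 tested genes for U2 and the branch site, 6 were called higher and 3 lower, and at the ends were Sf3a2, at 5.70, 3.39 and 8.00 FPKM in HMD and 12.5, 13.4 and 11.0 in Bet+HMD (1.05), and Sf3b5, at 7.27, 4.88 and 11.1 and 2.82, 2.84 and 2.68 (-1.15). Of 26 Prp factors and helicases, 11 were called higher and 2 lower, and at the ends were Prpf38b, at 4.70, 4.91 and 5.30 FPKM in HMD and 15.2, 14.6 and 15.2 in Bet+HMD (1.42), and Prpf19, at 19.6, 18.2 and 19.2 and 14.0, 15.8 and 14.0 (-0.36). Against Con the counts higher and lower were 19 and 0 for SR-related genes, 19 and 3 for the regulators, 2 and 7 for the snRNP core, 4 and 2 for U2 and the branch site, and 10 and 4 for Prp factors and helicases. Against Con, the counts of 2 of 20 higher in the snRNP core and of 4 and 2 of 15 for U2 were near or under the shares of all genes. Against HMD, so were the counts of 4 of 20 higher in the snRNP core and of 3 of 15 lower for U2. The lower counts of the regulators and of the Prp factors and helicases were under these shares in both comparisons. In HMD against Con 0 genes of any of these lists were called by limma.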

How the data were processed

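Members and gene lists were chosen with earlier results of these data known. The authors deposited FPKM values per gene for the 9 libraries, with gene lengths and positions (mm10). The submitters' processing notes name HISAT2 2.1.0 and featureCounts 1.5.0-p3, and the study's methods name other versions. The methods mention both ribosomal RNA depletion and an mRNA library kit, and whether counting used the strand was not given in the sources used here. Columns headed COL were taken as Con by elimination. All comparisons used the later table, since the earlier one lacks Bet+HMD.

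From these values log2(FPKM + 1) was computed, genes with a mean of at least 1 FPKM over the 6 libraries compared were kept, and limma 3.58.1 (R 4.3.3, empirical Bayes with trend, two-sided, 3 against 3 libraries) was fitted across all genes with Benjamini-Hochberg adjustment. A gene was called at an adjusted p under 0.05. Whole reads were recovered from FPKM and length for depth and for voom. Scripts were tested on simulated data. Alternatives were pseudocount 0.1, no minimum, a minimum of 5 FPKM, TPM, quantile normalization, median centring, no trend, all groups in one fit, voom, protein-coding genes alone, the earlier table, a replicate block, and each library left out. Values per library are given for the kinases, LUC7 genes, Rbm25, Rbm39, the 6 called members that rose most and the 6 that fell most in each comparison (where 0 were called, the 3 of smallest p in each direction), and, per pathway list, the largest called rise and fall against HMD.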

Additional observations from a re-analysis of the deposited data

How the results depend on the processing

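With 3 libraries per group the precision rests on few values, and the 9 libraries do not separate betaine from batch. The counts of higher calls stayed within 1.5 times of their values under every alternative, with ranges of 22 to 30 (Bet+HMD against HMD) and 18 to 30 (Bet+HMD against Con) members when 1 library was left out. The falls were less stable. Against HMD, 5 members were called lower, and this count was 3 with no minimum, 1 with TPM, 0 with quantile normalization, 3 with voom, and 2 to 5 with 1 library left out (2 without any of the Bet+HMD libraries). Hnrnpk turned to 0.069 (log2) with quantile normalization. Against Con, 4 were called lower, and this became 0 with TPM, 0 with quantile normalization and 2 to 5 with 1 library left out. Genes of the 5 pathway lists called lower against HMD were 17, or 9 with TPM and 10 to 16 with 1 library left out, and against Con 16, or 8 with TPM and 10 to 20. The cause was not tested.

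In HMD against Con 0 members were called under any alternative, while 10 of all genes were called when all groups were fitted together. Libraries with the same number were not paired in the main fits. Their deviations correlated at -0.058, 0.337 and 0.320 between HMD and Con, where HMD libraries 2 and 3 each correlated best with the same number. The values were 0.017, -0.10 and -0.15 between Bet+HMD and HMD, and -0.049, -0.090 and -0.18 between Bet+HMD and Con. Shared structure between libraries of the same number was not excluded. With the replicate block, 30 members were called against HMD (3 lower) and 22 against Con (2 lower), and 10 pathway genes were called lower against Con.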
